A study of Mus musculus with 18 samples.

Results

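Chromosomes 8 and 11 were studied as 2 whole autosomes whose share of the sequencing reads was raised in some libraries of the series. Their members are the CpGs with at least 5 reads in all 18 libraries: 229091 CpGs, of which 100116 lie on chromosome 8 and 128975 on chromosome 11, or 16.1% of the 1424423 such CpGs in the genome. A library was said to carry a gain of a chromosome when its share of autosomal CpG reads there was more than 25% above that of the median library. The gained libraries were thus chosen by their read counts, so the shares below are a description, and the methylation levels were not used in that choice.

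The libraries are enhanced reduced representation bisulfite sequencing (eRRBS) of mouse embryonic stem (ES) cells, an assay that reads methylation mostly in CpG-rich restriction fragments. All cells share a knockout of Dnmt1 and a stably transfected pPyCAGIP vector kept under puromycin, and they were grown in serum with leukemia inhibitory factor. The vector carried wild-type (WT) DNMT1 or 1 of 5 forms with tryptophan-to-alanine substitutions: W796A, W465A, W464A/W465A, W465A/W796A or W464A/W465A/W796A (the triple mutant). Each of the 6 groups has 3 biological replicates. Several stable lines were made per group, and the labels do not say which line a library came from or how long it was cultured.

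DNMT1 copies CpG methylation onto the new DNA strand after replication, so cells with impaired DNMT1 lose methylation as they divide. Extra copies of chromosomes 8 and 11 are known to recur in mouse ES cells in long culture. A culture can be a mixture of cells with and without such a gain, and a bulk library averages over them. The copy number of single cells was not measured here, and "gain" means the read share only.

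Reads summed over CpGs were fewest in WT replicate 3 (59776439) and most in WT replicate 2 (138978763). The median coverage of a member CpG was 12 to 26 reads on chromosome 8 and 12 to 40 on chromosome 11, depending on the library, against 12 to 28 on the other 17 autosomes. The 95% Wilson interval of a read share was at most 0.12% of the median library's share on either side, which covers counting error only, since reads are not independent molecules.

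Sequences of 6 loci, picked from the tiles named below, are shown. Each is the plus strand of GRCm38, 5′ to 3′, 300 bases centred on the middle member CpG of a 1 kb tile, with every CpG in capitals. The first lies in an intron of Lhx1 and was the single tile of these chromosomes called in W796A. The next 3 lost methylation in the other mutants, and the last pair had the smallest p on its chromosome in the test of the gain.
Lhx1 intron, chr11:84522920-84523219: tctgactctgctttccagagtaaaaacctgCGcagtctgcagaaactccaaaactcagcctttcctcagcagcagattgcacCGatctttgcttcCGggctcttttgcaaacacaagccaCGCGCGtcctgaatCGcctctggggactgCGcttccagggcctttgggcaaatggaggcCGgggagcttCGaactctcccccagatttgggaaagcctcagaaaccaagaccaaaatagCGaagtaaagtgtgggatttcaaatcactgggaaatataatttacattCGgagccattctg
Spock3 intron, chr8:63305875-63306174: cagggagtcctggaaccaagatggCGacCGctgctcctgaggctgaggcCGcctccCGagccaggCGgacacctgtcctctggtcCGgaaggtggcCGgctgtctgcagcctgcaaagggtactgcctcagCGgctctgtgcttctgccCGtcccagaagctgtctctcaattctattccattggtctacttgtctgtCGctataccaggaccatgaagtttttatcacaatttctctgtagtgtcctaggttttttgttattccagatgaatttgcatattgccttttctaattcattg
Kcnu1 intron, chr8:25931191-25931490: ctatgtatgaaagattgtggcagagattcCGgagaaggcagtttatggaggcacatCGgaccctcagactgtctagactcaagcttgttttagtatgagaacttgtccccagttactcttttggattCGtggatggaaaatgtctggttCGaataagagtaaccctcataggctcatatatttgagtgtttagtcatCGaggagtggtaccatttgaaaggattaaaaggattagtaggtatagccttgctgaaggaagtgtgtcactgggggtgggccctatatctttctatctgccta
Intergenic near Pemt, chr11:60051440-60051739: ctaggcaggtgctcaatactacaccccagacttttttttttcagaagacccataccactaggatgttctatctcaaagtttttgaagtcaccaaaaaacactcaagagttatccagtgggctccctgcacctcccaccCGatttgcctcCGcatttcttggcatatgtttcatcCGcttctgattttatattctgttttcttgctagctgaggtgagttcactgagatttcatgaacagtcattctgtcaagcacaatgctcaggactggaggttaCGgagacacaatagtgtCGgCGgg
Intergenic near Zfp869, chr8:69716477-69716776: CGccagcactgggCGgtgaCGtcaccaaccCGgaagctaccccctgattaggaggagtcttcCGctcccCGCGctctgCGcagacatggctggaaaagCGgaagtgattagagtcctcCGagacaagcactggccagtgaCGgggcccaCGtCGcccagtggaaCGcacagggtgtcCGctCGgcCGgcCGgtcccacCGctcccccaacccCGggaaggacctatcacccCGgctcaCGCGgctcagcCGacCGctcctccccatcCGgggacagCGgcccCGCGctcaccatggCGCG
Intergenic near Olfr332, chr11:58474878-58475177: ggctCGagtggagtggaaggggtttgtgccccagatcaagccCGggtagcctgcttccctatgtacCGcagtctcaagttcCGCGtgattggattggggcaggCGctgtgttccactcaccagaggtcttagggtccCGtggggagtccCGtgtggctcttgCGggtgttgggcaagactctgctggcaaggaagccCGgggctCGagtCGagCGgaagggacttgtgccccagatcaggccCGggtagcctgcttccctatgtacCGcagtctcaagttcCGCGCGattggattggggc
The windows in the Spock3 intron and near Olfr332 are 100% repeat-masked in the reference, so how reads of similar copies were placed could affect their values. The same holds for windows not shown of tiles named below. Those in March1 and Wwc2 are 100% repeat-masked, and those near Sdk2, in Gm10649 and in Hydin 93%, 89.7% and 82.7%. The Lhx1 window holds 12 CpGs, 9 of them members, and is 6.67% repeat-masked.

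Chromosome 8 carried a gain in 3 libraries. Its share was 39.4% above the median library in WT replicate 1, 41.8% in W465A/W796A replicate 2 and 40.0% in W465A/W796A replicate 3. The nearest libraries under the threshold were triple mutant replicate 3 at 18.8%, W796A replicate 1 at 14.7% and W464A/W465A replicate 3 at 11.4%. The other 12 libraries lay between -4.4% and 1.1%. The median library had 5.61% of its autosomal reads on chromosome 8.

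Chromosome 11 carried a gain in 5 libraries. Its share was 40.0% above the median library in WT replicate 1, 42.3% in WT replicate 2, 40.9% in W465A/W796A replicate 1, 33.7% in W465A/W796A replicate 3 and 34.1% in triple mutant replicate 3. The highest libraries without the gain were W796A replicate 1 at 12.6% and W465A/W796A replicate 2 at 10.4%, and the other 11 libraries lay between -3.9% and 3.1%. The median library had 6.86% of its autosomal reads there.

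Both gains were present in 2 libraries, WT replicate 1 and W465A/W796A replicate 3, and at least 1 gain in 6 libraries. No library of W796A, W465A or W464A/W465A passed the threshold for either chromosome. If every cell had 3 copies in place of 2, arithmetic on the median shares would give a share 45.9% above the median for chromosome 8 alone, 45% for chromosome 11 alone and 41.2% for both. The gained libraries lay between 33.7% and 42.3%. In the 306 pairs of another autosome and a library, 2 exceeded the threshold, both on chromosome 6 in W464A/W465A, and the others lay between -11.0% and 8.1%.

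**Figure D1:**
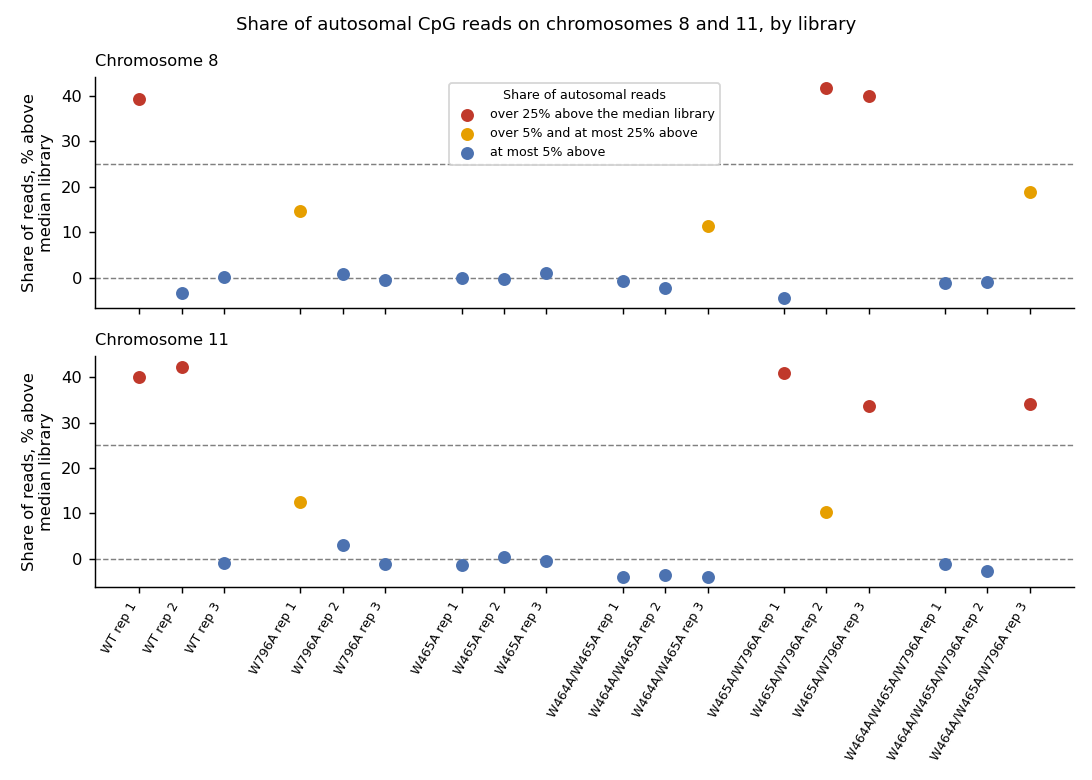
Share of autosomal CpG reads on chromosome 8 (top) and chromosome 11 (bottom), in percent above the median library, for each of the 18 libraries on the x axis. Dashed lines mark 0 and the threshold of 25%. Gained libraries lie between 33.7% and 42.3%, and 5 points of intermediate share lie between 10.4% and 18.8%.

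The gains spanned the chromosomes. In 5 Mb bins, all 26 bins of chromosome 8 passed the same threshold in W465A/W796A replicates 2 and 3, and 25 of 26 in WT replicate 1. On chromosome 11 all 25 bins passed in WT replicates 1 and 2 and W465A/W796A replicate 1, and 23 of 25 in W465A/W796A replicate 3 and triple mutant replicate 3. The intermediate shares were spread along the chromosome too. W796A replicate 1 had bins 0.9% to 24.7% above the median library on chromosome 8 (median 11.5%) and 1.4% to 20.7% above it on chromosome 11 (median 10.4%). The same gain calls resulted when the share was taken from member CpGs alone or from CpG-poor positions alone, with 0 calls changed.

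The relative level of a chromosome is its mean CpG methylation as a percentage of that on the library's autosomes other than 8 and 11, each CpG counted once. On chromosome 8 the gained libraries had relative levels of 105.1% (WT replicate 1), 105.7% (W465A/W796A replicate 2) and 105.6% (W465A/W796A replicate 3). The ungained libraries of the same groups had 104.7% and 105.5% in WT and 105.5% in W465A/W796A. The gained and ungained libraries overlapped. The mean difference, gained minus ungained within group, was 0.10 percent of the other autosomes' level (0.02 in WT and 0.18 in W465A/W796A). An exact two-sided permutation test within groups gave p = 0.778, and its 9 arrangements allow no p under 0.111. The sign of the difference was not stable: it was -5.54 with CpGs of at least 20 reads, -1.77 with pooled reads, -0.35 in percentage points and -0.08 without WT replicate 2 (exact permutation p = 0.111, 0.222, 0.111 and 1). The value in percentage points also depends on the global level, which was lower in the gained libraries of both groups. A raised read minimum was asked of all 18 libraries, some with a median coverage of 12. The 20-read values here and below thus rest on a high-coverage part of the CpGs, whose number was not counted.

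On chromosome 11 the gained libraries had relative levels of 98.2% and 99.4% in WT replicates 1 and 2, 98.8% and 97.6% in W465A/W796A replicates 1 and 3, and 98.3% in triple mutant replicate 3. The ungained libraries had 99.2% in WT replicate 3, 95% in W465A/W796A replicate 2, and 97.8% and 96.6% in triple mutant replicates 1 and 2. The gained library was lower than the ungained mean in WT (by -0.42) and higher in W465A/W796A (by 3.17) and the triple mutant (by 1.07). The stratified difference was 1.27, with an exact two-sided permutation p of 0.185, the smallest possible p being 0.037 over 27 arrangements. Without W465A/W796A replicate 2, whose own share was intermediate, the difference was 0.33 (exact permutation p = 0.556). It was -0.31 with CpGs of at least 10 reads and -5.30 with at least 20 (exact permutation p = 0.778 and 0.0741), so its sign depended on the coverage minimum. With either gain as the label, the same test on each of the 19 autosomes gave 38 tests, of which the smallest Benjamini-Hochberg adjusted exact permutation p was 0.352.

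Libraries of intermediate share, more than 5% and at most 25% above the median library, did not all follow the gained ones. W796A replicate 1 had relative levels of 96.3% on chromosome 8 and 90.5% on chromosome 11, whereas W796A replicates 2 and 3 had 105.2% and 105.2% on chromosome 8 and 99.6% and 99.4% on chromosome 11. Its levels were 37.1% and 34.9% on the 2 chromosomes, against 38.5% on its other autosomes. It was the single library of the 18 in which chromosome 8 was less methylated than the other autosomes. Against the mean of the other 2 W796A libraries it deviated by -8.90 on chromosome 8 and -9.04 on chromosome 11, in percent of the other autosomes' level. These were the 2 largest of 342 such deviations over 19 autosomes and 18 libraries. On its 17 other autosomes the deviations ran from -0.71 to 0.90, and on those autosomes in all libraries from -2.30 to 2.94.

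The other libraries of intermediate share also stood lowest in their groups at the 5-read minimum. W465A/W796A replicate 2 had a relative level of 95% on chromosome 11, -3.17 from the mean of the other 2 W465A/W796A libraries, but 0.01 from it with CpGs of at least 20 reads. On chromosome 8, which was gained in that same library, it was 0.16 from them, and on its other autosomes between -1.07 and 0.82. Triple mutant replicate 3 on chromosome 8 lay -0.59 and W464A/W465A replicate 3 on chromosome 8 lay -0.47 from the other 2 of their groups, both within the range seen on other autosomes. The 5 chromosome and library pairs of intermediate share were thus all the lowest of their group at that minimum, compared with 1 of 8 gained pairs and 6 of 23 pairs at most 5% above the median. The bounds of the intermediate class were drawn after these values were seen, so the counts carry no test. The size of the deviation did not follow the share: shares 18.8% and 11.4% above the median went with -0.59 and -0.47, and shares of 14.7%, 12.6% and 10.4% with -8.90, -9.04 and -3.17. The part of a mixture of cells was not tested.

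**Figure D2:**
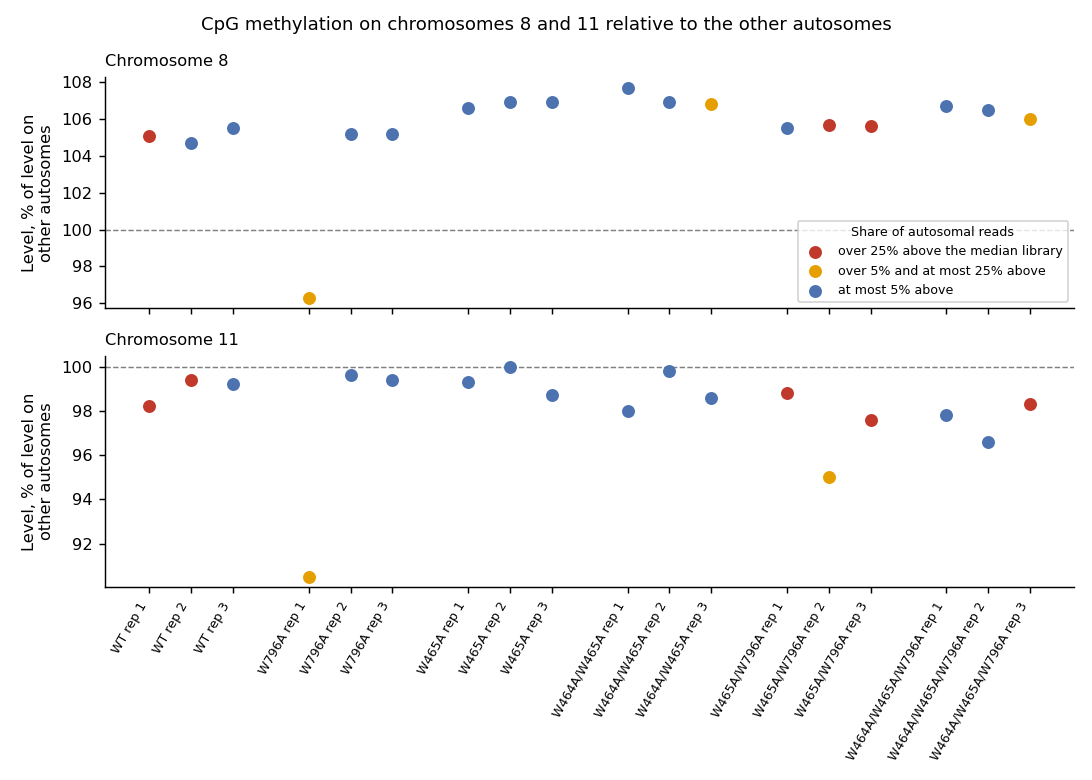
Mean methylation of chromosome 8 (top) and chromosome 11 (bottom) as a percentage of the level on the library's other autosomes, for each library on the x axis, coloured by read share. W796A replicate 1 lies at 96.3% and 90.5%, and the gained libraries lie at 105.1% to 105.7% and 97.6% to 99.4%.

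**Figure D3:**
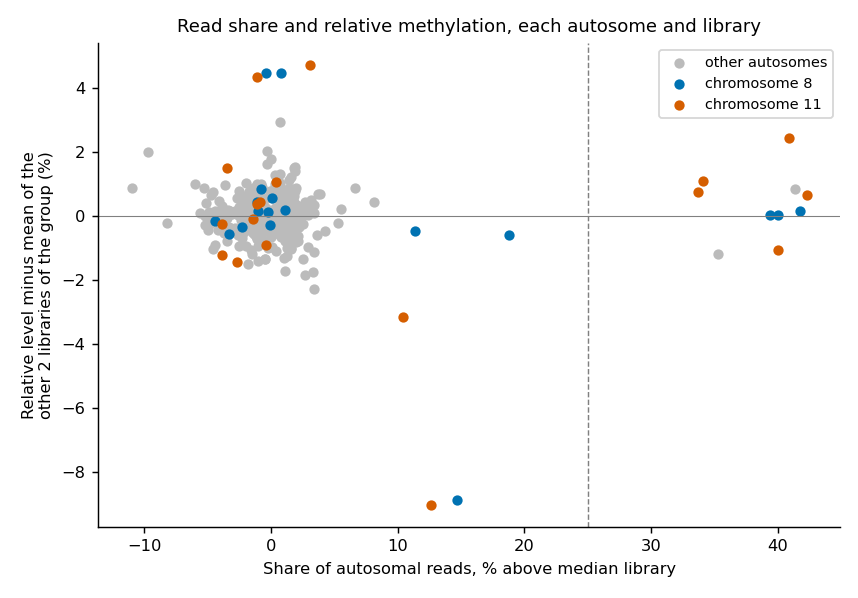
Each point is 1 autosome in 1 library: the x axis is its read share in percent above the median library and the y axis its relative level minus the mean of the other 2 libraries of the group, in percent of the other autosomes' level. The lowest points, at -8.90 and -9.04, are chromosomes 8 and 11 of W796A replicate 1, with shares 14.7% and 12.6% above the median. For W796A replicates 2 and 3, which lie above 4, the comparison includes replicate 1.

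The lower level in W796A replicate 1 ran along both chromosomes. In 10 Mb bins it was below the other 2 W796A libraries in 13 of 13 bins of chromosome 8 (-11.60 to -7.68) and in 13 of 13 of chromosome 11 (-10.63 to -7.34). Its 227 bins on the other autosomes had a median of 0.10 and a 5th to 95th percentile range of -2.50 to 2.10, and 1 of them reached down to the highest bin of chromosomes 8 and 11. W465A/W796A replicate 2 was below the other 2 of its group in 13 of 13 bins of chromosome 11 (-5.97 to -1.42) and in 6 of 13 of chromosome 8.

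**Figure D4:**
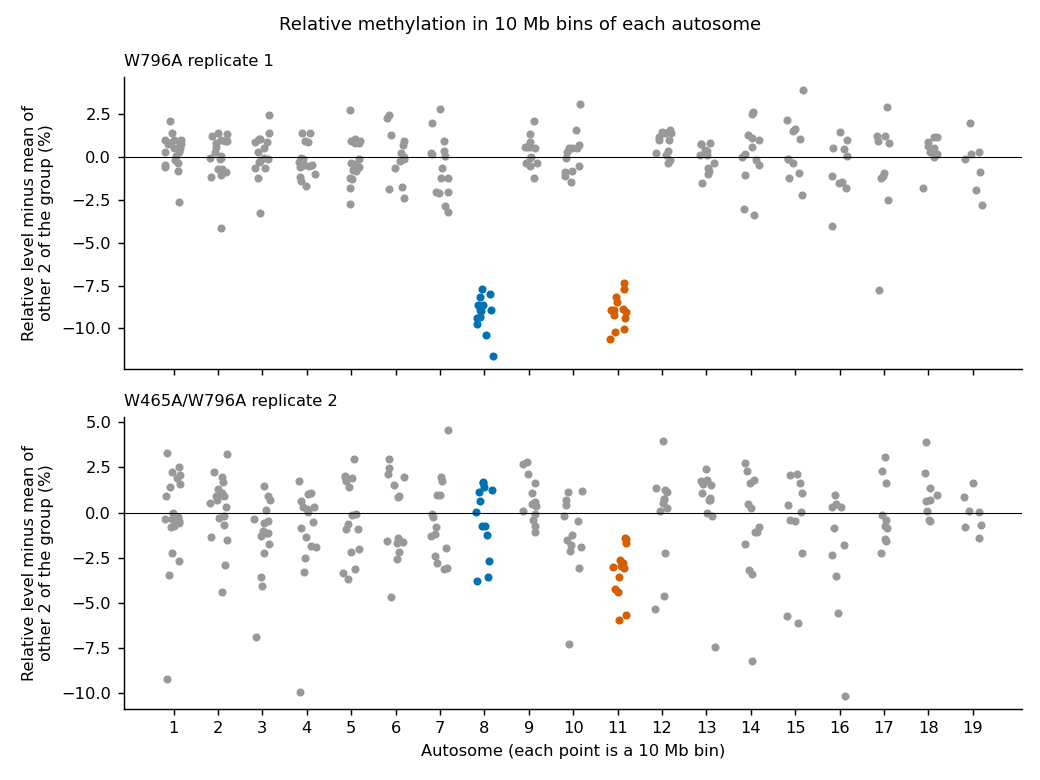
Relative methylation in 10 Mb bins of each autosome (x axis) for W796A replicate 1 (top) and W465A/W796A replicate 2 (bottom), minus the mean of the other 2 libraries of the group, in percent of the other autosomes' level. All 13 bins of chromosome 8 (blue) and all 13 of chromosome 11 (orange) lie at or below -7.34 in the upper panel. In the lower panel only the chromosome 11 bins are all below 0.

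W796A replicate 1 was lower than the other 2 of its group in every CpG density and feature class examined. With CpG density as the number of CpGs within 250 bp on either side, W796A replicate 1 lay -8.63, -8.18, -8.91 and -9.57 from the other 2 on chromosome 8, from the sparsest class (1 to 5) to the densest (over 20). On chromosome 11 the values were -8.78, -9.07, -9.32 and -7.40. By feature they were -8.56 and -10.17 in promoters (within 500 bp of a transcription start) of chromosomes 8 and 11, -8.58 and -9.08 in other genic CpGs, and -8.68 and -8.75 in intergenic CpGs. Repeat-masked CpGs gave -8.22 and -7.68. Other libraries deviated nearly as far in some classes: in the densest class on chromosome 11 WT replicates 1 and 3 lay at -7.00 and 7.13, and in promoters of chromosome 8 W464A/W465A replicate 1 lay at 7.68. All these are relative levels, each set against the same class on the library's other autosomes.

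Highly methylated tiles gave the size of the difference in absolute terms. Among 1 kb tiles at 80% or more in both W796A replicates 2 and 3, W796A replicate 1 had a median level of 61% over 5332 tiles of chromosome 8 and 60.5% over 6339 tiles of chromosome 11. Over 60365 such tiles of the other autosomes its median was 66.7%. The selection used replicates 2 and 3, which had medians of 87.9% to 91.3% in these sets, and replicate 1 was lower genome-wide. W796A replicate 1 was the lowest of the 3 libraries in 90.2% of all tiles on chromosome 8, 88.6% on chromosome 11 and 83.8% on the other autosomes.

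By genotype, chromosomes 8 and 11 followed the rest of the genome. The mean level on chromosome 8 was 50% ± 6.18 in WT, 49.4% ± 10.9 in W796A, 36.6% ± 2.94 in W465A/W796A, 21.5% ± 4.61 in W465A, 15.7% ± 1.97 in W464A/W465A and 15.5% ± 1.95 in the triple mutant (SD, n = 3). On chromosome 11 it was 47.1% ± 6.14, 46.6% ± 10.4, 33.7% ± 3.27, 20% ± 4.3, 14.5% ± 1.98 and 14.2% ± 1.63 in the same order. The other autosomes had 47.6%, 48%, 34.6%, 20.1%, 14.7% and 14.6%. WT and W796A overlapped, as did W464A/W465A and the triple mutant, while the W465A/W796A libraries lay between the ranges of WT and W465A. W796A minus WT was -0.63 percentage points on chromosome 8 and -0.47 on chromosome 11, against 0.44 elsewhere. Without W796A replicate 1 the 3 differences were 5.50, 5.40 and 5.17, so 1 library set their sign on these chromosomes.

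**Figure D5:**
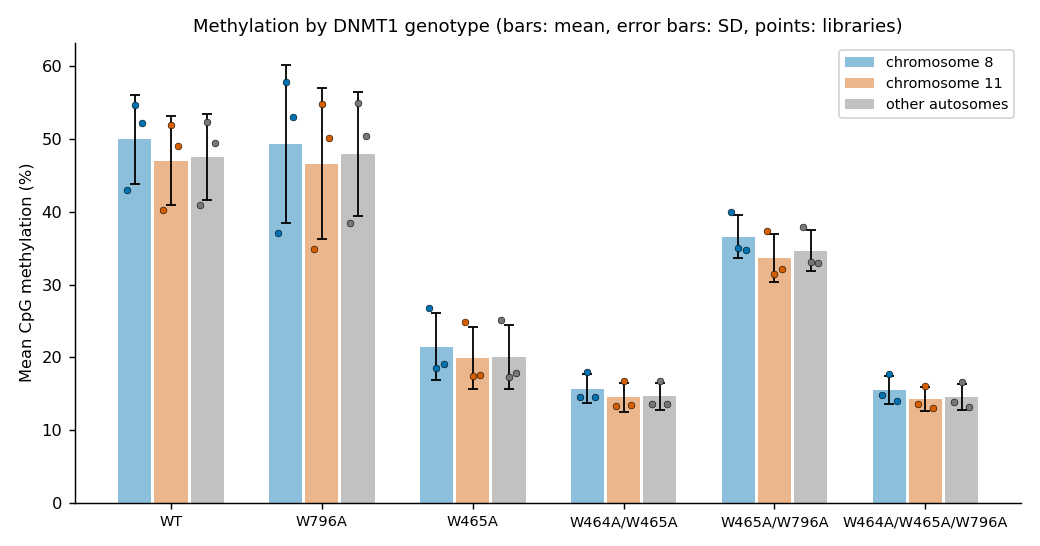
Mean CpG methylation (y axis, percent) on chromosome 8, chromosome 11 and the other autosomes for the 6 DNMT1 genotypes (x axis). Bars are means of 3 libraries, error bars are SD and points are libraries. Chromosome 8 ranges from 50% in WT to 15.5% in the triple mutant, close to the other autosomes in each group.

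The substitutions were also compared on the relative level, with labels permuted within background and p-values adjusted over 8 tests. W465A went with a chromosome 8 relative level higher by 2.54 (1.71 on WT and 3.36 on W796A; exact permutation p = 0.005, adjusted 0.016). W464A/W465A went with 3.10 (2.02 and 4.18; exact p = 0.005, adjusted 0.016). Adding W464A to W465A gave 0.56 (exact p = 0.025, adjusted 0.05), and W796A gave -1.59 over 3 backgrounds (exact p = 0.006, adjusted 0.016). In percentage points the first 3 took the other sign, at -0.24, -0.90 and -0.66, and W796A was -0.20. A value in points also depends on the global level: the same relative level gives a smaller excess at a lower level. Chromosome 8 exceeded the other autosomes by 2.09 to 2.70 points in WT, 1.19 to 1.66 in W465A and 0.92 to 1.16 in W464A/W465A. Their other autosomes were at 47.6%, 20.1% and 14.7%. In W796A the excess was -1.43, 2.86 and 2.62, against 1.85 to 2.07 in W465A/W796A. The change of sign in points is thus no test of the relative level. With pooled reads none of the 4 passed 0.05 (1.58, 2.35, 0.77 and -1.76; exact permutation p = 0.42, 0.115, 0.435 and 0.156). Adding W464A, whose adjusted p was not under 0.05, also had an unadjusted p over 0.05 in other settings. These were the replicate number as a block (exact permutation p = 0.0938) and CpGs of at least 10 reads (0.33, exact permutation p = 0.565). The size of several rested on W796A replicate 1: without it W465A gave 1.05, W464A/W465A 1.61 and W796A -0.60.

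Leaving out some other libraries raised the unadjusted p of the same chromosome 8 effects to 0.05 or more. The W465A effect had an exact permutation p of 0.115 to 0.135 without each W465A/W796A library (2.51 to 2.57). The W796A effect had 0.102 to 0.162 without each WT library (-1.65 to -1.53), and W464A/W465A 0.055 without triple mutant replicate 1 (3.03). Adding W464A had 0.05 without W465A replicate 1 (0.51) and 0.055 without each W465A/W796A library (0.53 to 0.59). On chromosome 11 no effect passed after adjustment: W465A 0.54 (exact permutation p = 0.825), W464A/W465A 0.48 (0.945), W464A added -0.05 (0.95) and W796A -1.96 (0.036, adjusted 0.0576). The W465A and W464A/W465A values on chromosome 11 became -0.97 and -1.02 without W796A replicate 1.

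Single loci were tested in 155660 tiles of 1 kb with at least 3 member CpGs, 11060 of them on chromosome 8 and 14156 on chromosome 11. Methylated and total reads were summed per tile and fitted with a quasi-binomial logistic model, p-values were adjusted over all tiles by the Benjamini-Hochberg method, and a tile was called with an adjusted p under 0.05 where the level differed by 10 percentage points or more. A tile of these chromosomes had a median of 75 reads per library.

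W465A, which replaces 1 tryptophan, was lower than WT in 9359 tiles of chromosome 8 (84.6%) and 11806 of chromosome 11 (83.4%), where 82.8% of all tiles were called. W464A/W465A was lower in 9599 and 12022 tiles (86.8% and 84.9%), with 84.5% of all tiles called. The triple mutant was lower in 9641 and 12054 (87.2% and 85.2%), with 84.6% of all tiles called. These shares were near the background of the whole genome. No tile of either chromosome was called higher in these 3 mutants, against 0.000642%, 0.000642% and 0% of all tiles, and the median differences ran from -40.21 to -51.74 percentage points.

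W465A/W796A was lower than WT in 2523 tiles of chromosome 8 (22.8%) and 4340 of chromosome 11 (30.7%), with 24.4% of all tiles called. The median differences were -18.13 and -18.82 percentage points, and -18.07 on the other autosomes. Chromosome 11, with the larger share called, is gained in 2 WT and 2 W465A/W796A libraries and has more reads there. Chromosome 8, with 22.8% called, is gained in 1 WT and 2 W465A/W796A libraries. The part of read depth in these shares was not tested. Higher calls were 0 on both chromosomes, against 0.00128% of all tiles. The count was unstable, and the share of all tiles moved with it. Both chromosomes together had 6863 calls. Without WT replicate 1 there were 12566 (49.8%, against 44% of all tiles) and without WT replicate 2 there were 0 (0% of all tiles). Leaving out WT replicate 3 gave 2213 (8.78%, against 7.87%). Leaving out W465A/W796A replicate 2 gave 1132 (4.49%, against 4.3%) and leaving out W465A/W796A replicate 3 gave 160 (0.635%, against 0.723%). With the 2 gains as terms in the model the count was 61 (0.242%, against 0.228%). With the replicate number as a block it was 3588 (14.2%, against 13.4% of all tiles). Limma called 869, with no share of all tiles taken.

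W796A differed from WT in 1 tile of chromosome 11, which was higher, and in 0 of chromosome 8. Over the genome 0.00385% of tiles were called higher and 0% lower. At an unadjusted p under 0.05 the quasi-binomial model had 473 tiles on chromosome 8 (4.28%) and 747 on chromosome 11 (5.28%), with 5.28% on the other autosomes. With the adjusted p and minimum difference of a call, limma called 0 on both. The WT and W796A libraries of the same number deviated together, and in both groups replicate 1 was lowest and replicate 2 highest genome-wide. With the replicate number as a block 22 tiles of the 2 chromosomes were called (0.0872%, against 0.088% of all tiles). Without W796A replicate 1 there were 70 calls (0.278%, against 0.251% of all tiles) and without WT replicate 3 43 (0.171%, against 0.351%), whereas leaving out WT replicate 1, WT replicate 2, W796A replicate 2 or W796A replicate 3 left 0. The fit with replicate 1 of W796A and replicate 2 of W465A/W796A left out together, chosen after seeing the data, gave 48 (0.19%, against 0.184%).

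The called tile is chr11:84523001-84524000, in an intron of Lhx1 (ENSMUSG00000018698.15), a LIM homeobox transcription factor of early development whose sequence opens the list above. Its level was 9.95%, 10.3% and 9.76% in WT and 25.4%, 28.4% and 25.8% in W796A, over 10 CpGs and 123 to 595 reads per library. The 2 groups did not overlap, and W796A replicate 1 was not apart from its group here. The difference was 16.36 percentage points (quasi-binomial model, adjusted p = 0.0476). The groups with W465A had lower means, 1.94% ± 0.935 in W464A/W465A, 5.1% ± 1.82 in W465A, 6.12% ± 1.24 in the triple mutant and 3.43% ± 1.01 in W465A/W796A (SD, n = 3).

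In W464A/W465A, the largest difference on chromosome 8 was in an intron of Spock3, which encodes a secreted proteoglycan, at chr8:63306001-63307000. Its level was 83.3%, 85.7% and 97.8% in WT and 6.06%, 6.67% and 6.06% in W464A/W465A, a difference of -82.94 percentage points (quasi-binomial model, adjusted p = 2.58e-06). The tile has 3 CpGs and 18 to 84 reads per library. W465A/W796A stood between them at 57.1%, 33.3% and 50.7%. An intron tile of March1, a membrane-bound ubiquitin ligase, differed by -82.45 and was at 97.4%, 92.2% and 92.3% in WT, with a mean of 10.1% ± 8.12 in W464A/W465A (SD, n = 3). In W796A that tile was at 49.3%, 96.4% and 88.9%, with replicate 1 the low one.

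W465A had its largest differences on chromosome 8 in the noncoding gene Gm10649 (-80.99 percentage points) and in an intron of Kcnu1, a potassium channel of sperm (-77.06). The Kcnu1 tile, at chr8:25931001-25932000, was at 88.5%, 80% and 95.8% in WT, 94.4%, 94.9% and 95.8% in W796A and 20%, 2.38% and 8.33% in W465A. Here the 3 W796A libraries lay within 2 percentage points of each other. On chromosome 11 the tiles were in an intron of Helz, an RNA helicase (-79.63), and 146955 bp from Sdk2, a cell adhesion gene (-76.49). Both had W796A replicate 1 far below the others, at 40% against 94.4% and 85.6% in Helz and at 44% against 98.2% and 82.7% near Sdk2.

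On chromosome 11 the tile chr11:60051001-60052000, 4512 bp from Pemt, a phospholipid methyltransferase gene, was named in both W464A/W465A and W465A/W796A. It was at 53.3%, 87.3% and 97.2% in WT, 0%, 6.67% and 4.76% in W464A/W465A and 39%, 24% and 20% in W465A/W796A. The differences were -83.02 and -58.25 percentage points (adjusted p = 3.66e-06 and 0.00862). The largest W464A/W465A difference on that chromosome, -87.24, overlapped a UTR of Nudcd2. For W465A/W796A the others were 124443 bp from Kif2b, a kinesin gene (-58.79), in an intron of Wwc2 (-52.26) and 24185 bp from Tmem192 (-54.33). Each has 3 CpGs, with as few as 15 to 18 reads in a library. The Kif2b tile was at 63%, 95.8% and 100% in WT and 54.8%, 0% and 14.3% in W465A/W796A. The Wwc2 tile was at 84.6%, 88.2% and 77.1% in WT and 38.9%, 33.3% and 25% in W465A/W796A. The Tmem192 tile was at 28.6%, 75.6% and 71.4% in WT and 5.56%, 10% and 12.5% in W465A/W796A.

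The triple mutant's largest differences were in an intron of Rapgef6, an exchange factor for Rap proteins (-84.01), across an exon of Lig3, a DNA ligase (-82.75), 390173 bp from Isx (-83.47), and within Hydin, a gene of motile cilia (-81.67). The Rapgef6 tile was at 89.7%, 93.3% and 96.3% in WT and 10.4%, 3.03% and 12.3% in the triple mutant. The groups were far apart at each of these loci, and these tiles were picked as the extremes of their comparison.

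No tile of chromosome 8 was called with the chromosome 8 gain and none of chromosome 11 with the chromosome 11 gain, in a model with genotype and both gains. Over all tiles 0% were called lower or higher with the chromosome 8 gain, and 0% lower and 0.000642% higher with the chromosome 11 gain. At an unadjusted p under 0.05 the quasi-binomial model had 1458 tiles of chromosome 8 (13.2%) for its gain, with 12.4% on the other autosomes. For the chromosome 11 gain it had 398 tiles of chromosome 11 (2.81%), with 3.83% on the other autosomes. With the adjusted p and minimum difference of a call, limma called 0 for either. The median difference with the chromosome 8 gain was -8.70 percentage points on chromosome 8 and -7.91 on the other autosomes, and the gained libraries were lower genome-wide in WT and W465A/W796A. Without W796A replicate 1 the model called 4 tiles of chromosome 8, and with an offset for the global level 10 of chromosome 11. No share of all tiles was taken for these settings.

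The tiles with the smallest p are a description only. Near Zfp869, a zinc finger gene 5277 bp away, the tile chr8:69716001-69717000 was at 2.42% in the gained WT library and 21.9% and 9.12% in the others, and at 1.26% in W465A/W796A replicate 2, gained, against 3.59% in the ungained replicate 1 (adjusted p = 0.358). The tile chr11:58475001-58476000, 11950 bp from the odorant receptor gene Olfr332, was at 73.3% and 75.9% in the gained WT libraries and 20.8% in the other. In W465A/W796A it was at 60.8% and 61.3% with the gain and 28.8% without, and in the triple mutant at 35.5% with it and 14.1% and 21.4% without (adjusted p = 0.588). The gained libraries were the higher ones in all 3 groups there, in a tile of 3 CpGs.

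Promoters on the 2 chromosomes were read for gene lists chosen with earlier results known, and without a test. A promoter level is the mean over member CpGs within 500 bp of any annotated start of the gene. The CpGs of Grb10 lie from position 11970386 to 12037888 and those of Hoxb3 from 96323319 to 96344269. More than 1 start is thus averaged in these genes. Imprinted genes were covered in 4 of 4, germline genes in 6 of 8, ES cell and LIF signalling genes in 4 of 4, Hoxb genes in 10 of 10, type I keratins in 5 of 10, Polycomb group genes in 5 of 5 and cell cycle genes in 4 of 5. All covered Polycomb group and cell cycle promoters were at 10% or less in WT, as were 8 of 10 Hoxb promoters and 3 of 4 of the ES cell list. The promoters over 10% were 4 of 6 germline, 4 of 5 keratin, 2 of 4 imprinted, Hoxb3, Hoxb1 and Zfp42. Zfp42 has 1 CpG and was at 0%, 83.3% and 0% in the WT libraries, so 1 library put it there, and Hoxb1 was at 0.714%, 14.9% and 15.8%.

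Among germline genes, Tex19.1, which acts in germ cells and restrains retrotransposons, was at 36.1%, 82.9% and 75% in WT over 6 CpGs. Its level was 18.6%, 6.45% and 6.14% in W465A and 50.7%, 40.9% and 51.8% in W465A/W796A. W465A lay below all WT libraries, and W465A/W796A overlapped the WT range. Spata22, needed for meiotic recombination, averaged 65.6% ± 12.5 in WT and 12.6% ± 9.15 in W465A, and Tex19.2 84.2% ± 9.32 and 40.2% ± 6.07 (SD, n = 3). Nanos3, read at 1 CpG, overlapped, at 31.8%, 60% and 46.7% in WT and 35.3%, 36.4% and 23.5% in W465A. Of the 5 covered keratin promoters, Krt15 was at 80.6% ± 8.9 in WT and 46% ± 4.12 in W465A, and Krt20 at 87.2% ± 2.22 and 49% ± 5.34 (SD, n = 3). Krt16 was at 76.5% ± 6.27 and 33.7% ± 12, and Krt19 at 50% ± 10 and 26.4% ± 15.8, over 2 CpGs each (SD, n = 3). Krt10 was at 0% in all 3 WT libraries and 0.317% ± 0.55 in W465A.

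Hoxb3, a developmental transcription factor gene, was at 38.6%, 49.7% and 62.9% in WT and 11.9%, 14.3% and 16% in W465A/W796A, the latter below W465A's 17%, 17.1% and 20.7%. The imprinted gene Grb10, a growth regulator, had 10.3% ± 1.17 in WT over 63 CpGs and 1.69% ± 0.463 in the triple mutant (SD, n = 3). Ddc, also on the imprinted list and read at 2 CpGs, was at 50.3%, 84.3% and 83.3% in WT. Its W465A libraries overlapped these, at 26.2%, 81.8% and 44.7%. W796A replicate 1 was the lowest of its group at Grb10 (7.34% against 11.8% and 10.8%) and at Tex19.1 (43.1% against 82.7% and 53%), but not at Spata22 (37.5% against 65% and 30.6%).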

How the data were processed

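eRRBS was measured in 18 libraries, 3 per group. The authors deposited 1 table with, for each CpG and library, the methylated read count and the total read count, both raw. Per the submitters' processing notes, cutadapt 1.2.1, Bismark 0.18.1 and Bowtie 1.2 were used with the build GRCm38. How duplicates and repeated sequences were treated is not given in the sources used here. All listed CpGs were found in the GRCm38 reference, and gene models came from GENCODE M21. The members, lists and tests were chosen with earlier results of these data known.

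Read shares used all listed autosomal CpGs. Levels used CpGs with at least 5 reads in all libraries. Exact permutation tests of the gains kept genotype as a stratum, and those of the substitutions kept the background. Tiles were fitted with a quasi-binomial model with overdispersion squeezed across tiles (12 residual degrees of freedom, prior 3.5 with 6.05), and limma 3.58.1 (log2 of methylated over unmethylated reads, 0.5 added to each) was an alternative. The model was first tested on simulated data. Python 3.11.15, numpy 2.4.6, scipy 1.17.1 and R 4.3.3 were used. Named tiles were the 2 with the largest difference per chromosome and mutant, among called tiles in which mutant and WT libraries did not overlap. For a gain they were the 2 of smallest p where none was called. Covered genes of the lists were eligible too.

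Same-numbered WT and W796A libraries had deviations from their group means correlated over tiles at r = 0.244, 0.264 and 0.144. This was the 1 pair of groups of 15 with every r over 0.1, and no label names a shared source. On the other autosomes WT had 40.9%, 52.3% and 49.5% and W796A 38.5%, 55% and 50.5% in replicates 1, 2 and 3. The part of these global levels in the correlation was not tested. Whether the biological replicates of a group are separate lines is not given, so p-values measure the spread between these samples.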

Additional observations from a re-analysis of the deposited data

Results flagged for a closer look

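Chromosome 6, 1 of the 17 other autosomes against which levels were set and not itself compared between groups, had a share of autosomal reads 35.3% above the median library in W464A/W465A replicate 1 and 41.4% above it in W464A/W465A replicate 3, over the threshold of 25% and above every WT library. In both libraries 25 of 30 bins of 5 Mb passed the threshold. The relative level of chromosome 6 was 102.6%, 103.6% and 103.9% in replicates 1, 2 and 3.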

How the results depend on the processing

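Of 341 alternative values, 254 were labelled the same, 52 weaker, 8 stronger and 27 reversed. For the permutation tests, the same means that the direction and the side of the p threshold were kept. For tile counts it means a count within a fixed ratio of the main one, with no direction or p, so counts cannot be reversed. The causes were not tested except where a setting tests fewer tiles or libraries.

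The chromosome 8 gain difference of 0.10 became -5.54 at 20 reads, -1.77 with pooled reads, -0.35 in percentage points, -0.01 in logits and -0.13 at a gain threshold of 15%. It was -0.08 when both taken and permuted over all libraries without groups, and -0.08 to 0.29 leaving out 1 library. For chromosome 11, 1.27 became -0.31 at 10 reads and -5.30 at 20 reads, and 0.33 to 2.12 leaving out 1 library. Without the libraries of intermediate share, an alternative chosen after seeing the data, the values were 0.10 and 0.33. The deviations of W796A replicate 1 stayed between -11.69 and -7.97 over 5 alternatives chosen after seeing the data, and that of W465A/W796A replicate 2 on chromosome 11 became 0.01 at 20 reads.

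For the relative level on chromosome 8, pooled reads gave W465A 1.58, W464A/W465A 2.35, W464A added 0.77 and W796A -1.76, none past 0.05. Percentage points, which depend on the global level too, gave -0.24, -0.90, -0.66 and -0.20. Without gained libraries W465A gave 2.48, W464A added 0.62 and W796A -1.63, and at 10 reads W464A added gave 0.33. The replicate block left W464A added at 0.56 with an exact permutation p of 0.0938. Leaving out 1 library gave 1.05 to 3.28, 1.61 to 3.84, 0.42 to 0.66 and -2.08 to -0.60 in that order.

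On chromosome 11, W465A gave -0.66 without gained libraries and -0.44 without intermediate ones, and W464A/W465A -1.02 without intermediate ones. W464A added gave 1.55 at 10 reads, 0.04 with pooled reads, 0.29 in percentage points and 0.83 without gained libraries. W796A gave -2.88 without gained libraries and -0.61 without intermediate ones. Leaving out 1 library gave -0.97 to 1.33, -1.02 to 1.27, -0.58 to 0.35 and -2.49 to -0.96.

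Calls on both chromosomes together were 1 for W796A, 21165 for W465A, 21621 for W464A/W465A, 6863 for W465A/W796A and 21695 for the triple mutant. At 10 reads, with 6693 tiles left, they were 0, 4124, 4193, 1069 and 4223. These were 0%, 61.6%, 62.6%, 16% and 63.1%, against 0.00267%, 57.9%, 58.9%, 15% and 59% of all tiles. For W796A and W465A/W796A the replicate block gave 22 and 3588, gain terms 0 and 61, a minimum of 25 points 0 and 4542, and limma 0 and 869. Over all tiles the block called 0.088% and 13.4%, gain terms 0% and 0.228%, and the 25-point minimum 0.00257% and 17.6%. Leaving out W796A replicate 1 and W465A/W796A replicate 2 together, chosen after seeing the data, gave 48 for W796A. Leaving out 1 library gave 0 to 70, 17323 to 21468, 19883 to 21823, 0 to 12566 and 20295 to 21841. For all but W796A the shares of all tiles then ran 67.8% to 83.8%, 77.6% to 85.1%, 0% to 44% and 78.5% to 85.2%. For the gains, an offset gave 10 and the replicate block 3 tiles on chromosome 11, and leaving out 1 library 0 to 4 on chromosome 8. No share of all tiles was taken for these. The block changed no other call. CpGs with few reads limit single tiles more than chromosome means.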
